A study of Mus musculus with 27 samples.

Results

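The thymosins and the contractile actin genes were described as a group of 10, out of 24953 genes listed in the TPM table of 9 RNA-seq libraries. The genes were Tmsb4x and Tmsb10 (beta-thymosins), Acta2 and Actg2 (the smooth muscle actins), Tagln and Tagln2 (transgelins), Cnn1 (calponin 1), Myl9 (a regulatory light chain of myosin II), and Tpm1 and Tpm2 (tropomyosins). They were taken by symbol and chosen by measured values, since the fall of Tmsb4x TPM in Runx1KO libraries drew up the set, so that every difference of these genes between Runx1KO and control cells is given as a description without a test. Tests were made for ZebDKO against control cells, in which the same 3 control libraries served again.

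Beta-thymosins are small peptides that bind actin monomers one to one and hold them back from filaments. Smooth muscle actins, transgelin, calponin, tropomyosin and myosin light chain belong to the contractile filaments of smooth muscle, myofibroblasts and other stressed mesenchymal cells. Many contractile genes are switched on by SRF through the CArG box in their promoters, together with coactivators such as myocardin and the related MRTFs, of which the MRTFs bind actin monomers and stay out of the nucleus when monomers are plentiful. Runx1 is a DNA-binding factor that can activate or repress, and Zeb1 and Zeb2 are repressors known for holding epithelial genes silent.

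All cells were mK4, a mouse line derived from the metanephric mesenchyme of the kidney. Control cells were the unedited line (genotype WT), Runx1KO cells had exon 3 of Runx1 removed with CRISPR-Cas9, and ZebDKO cells had lost exon 2 of Zeb1 and exon 1 of Zeb2, the exons with the start codons. Each genotype had 3 RNA-seq libraries. Open chromatin (ATAC-seq) and Runx2 binding (ChIP-seq) were measured in control and Runx1KO cells. Runx1 ChIP-seq was run in both lines, and the Runx1 peaks used here are those of control cells. Knockout cells were grown from clones, and the sources do not say which clone or culture gave which library, so that clone and genotype cannot be told apart and a p-value measures only the spread between these libraries, which may be technical. Between 12541 and 12697 genes reached 1 TPM per library, and the number of reads cannot be read from TPM.

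The targeted genes could be checked only over the whole transcript, which is no check of a lost exon. Runx1 was at 18.7, 15.6 and 17.9 TPM in control libraries and at 30.3, 30.1 and 28.5 TPM in Runx1KO libraries. Zeb1 was at 16.8, 16.6 and 14.8 TPM in ZebDKO libraries against 15.1, 14.2 and 15.6 TPM in control libraries, and Zeb2 was at 1.7, 1.8 and 1.6 TPM against 5.5, 4.9 and 5.2 TPM. Both Zeb genes were at or under 0.2 TPM in all 3 Runx1KO libraries, so the Runx1KO cells also had little mRNA of Zeb1 and Zeb2.

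Promoter sequences are shown for the genes whose tested rise in ZebDKO cells passed 2-fold, Tmsb4x, Acta2 and Myl9. Tmsb10, the close relative of Tmsb4x, was added. These are the stretches where a Runx, Zeb or SRF match would lie next to the start. Tpm2, which was 1.37 in log2(TPM+1) above control in Runx1KO cells, is not printed. RefSeq windows, drawn on GRCm38.p6 from 250 bases before to 50 bases after a start, were found for 8 of the 10 genes (none for Actg2 and Tagln), and all 8 had 1 exact match in mm9, the build of the deposited peaks. Only bases upstream of the outermost start in GENCODE vM1 are printed, so that the Tmsb4x stretch ends 97 bases and the Myl9 stretch 44 bases short of the RefSeq start from which motif positions are counted. The stretches run 5′ to 3′ in the direction of the gene, with motif matches in capitals.
Tmsb4x, chrX:163647248-163647400, minus strand: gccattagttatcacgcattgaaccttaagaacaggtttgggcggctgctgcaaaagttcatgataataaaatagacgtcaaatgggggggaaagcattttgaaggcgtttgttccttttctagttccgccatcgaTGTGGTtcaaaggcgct
Tmsb10, chr6:72908743-72908992, minus strand: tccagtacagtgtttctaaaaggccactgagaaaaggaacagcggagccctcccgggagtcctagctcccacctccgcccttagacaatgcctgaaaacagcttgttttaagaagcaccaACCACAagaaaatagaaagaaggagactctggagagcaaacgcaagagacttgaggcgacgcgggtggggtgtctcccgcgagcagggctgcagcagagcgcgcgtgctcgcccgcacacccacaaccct
Acta2, chr19:34329864-34330113, minus strand: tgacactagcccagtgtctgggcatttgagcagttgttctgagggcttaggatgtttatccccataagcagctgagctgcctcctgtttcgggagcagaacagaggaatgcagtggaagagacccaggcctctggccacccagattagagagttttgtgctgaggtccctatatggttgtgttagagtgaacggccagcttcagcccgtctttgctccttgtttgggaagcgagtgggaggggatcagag
Myl9, chr2:156600950-156601155, plus strand: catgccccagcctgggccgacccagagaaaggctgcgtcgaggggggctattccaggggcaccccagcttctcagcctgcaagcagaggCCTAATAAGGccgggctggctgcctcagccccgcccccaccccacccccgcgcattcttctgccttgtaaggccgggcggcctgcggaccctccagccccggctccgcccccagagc
TGTGGT, the core of the Runx consensus, was searched on both strands and stood once in the Tmsb4x window, 114 bases before the RefSeq start. It stood in 16.7% of 32544 different promoter windows of the same length. In the first of 3 Tmsb10 windows it occurred at 130 bases before the start and again just after it, and in none of the windows of the other 6 genes. The CArG box bound by SRF was searched in its strict consensus form, with no mismatch allowed, and was found in the Myl9 window, 161 bases before the RefSeq start, and in 1.64% of all windows. CAGGTG, an E-box of the kind bound by Zeb factors, lay after the start of Myl9 and in the third Tmsb10 window, and in 20.3% of all windows. The Acta2 window held no match to these letters, and CArG elements that depart from the strict consensus, for which the Acta2 promoter is known, were not searched.

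Of the 10 genes Tmsb4x had the widest span between the genotypes. Its level was 111.8, 134.4 and 128.7 TPM in control libraries, and it was listed at 0.3, 0 and 0 TPM in Runx1KO libraries. In ZebDKO libraries it was at 641.9, 642 and 635.9 TPM. The 3 groups were far apart, with Runx1KO at the bottom of the scale and ZebDKO above control in every library. On the scale of log2(TPM+1), where 1 TPM is added before the logarithm, the Runx1KO difference was -6.85, the lowest of 13067 genes tested, which is the value that drew attention to the gene. In ZebDKO cells Tmsb4x rose 5.12-fold, a difference of 2.35 ± 0.06 in log2(TPM+1) (SE, n = 3 and 3, limma, Benjamini-Hochberg adjusted p = 1.12e-07). In rank this was the 228th highest of 12974 genes tested.

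Tmsb10, the other abundant beta-thymosin, moved much less. It was at 539.9, 562.6 and 597.6 TPM in control, 501.9, 531.6 and 490.3 TPM in Runx1KO, and 764.3, 750.2 and 783.7 TPM in ZebDKO libraries. The highest Runx1KO library stayed just below the lowest control library, and the ZebDKO libraries were all higher than both. The ZebDKO difference was 0.44 ± 0.04 in log2(TPM+1) (SE, limma, adjusted p = 3.98e-05), a 1.35-fold difference that did not reach the 2-fold limit used for a call. Parts of the Tmsb10 transcript recur at 6 other places in mm9 that cover at least 50% of it at 90% identity or more, so reads may have been split between copies, whereas no such place was found for Tmsb4x.

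Together the pair of thymosins summed to 692 ± 37.6 TPM in control (SD, n = 3), 508 ± 21.3 TPM in Runx1KO and 1406 ± 13.7 TPM in ZebDKO libraries. Tmsb4x made up 18.1% ± 1.10 of this sum in control libraries and 45.5% ± 0.67 in ZebDKO libraries. In the Runx1KO libraries its share was 0.0597% in the first and 0 in the others, so that nearly all mRNA of this pair there was Tmsb10. The minor beta-thymosins are not in the sum. These shares rest on the gene lengths behind the TPM values, which the sources do not state.

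**Figure D1:**
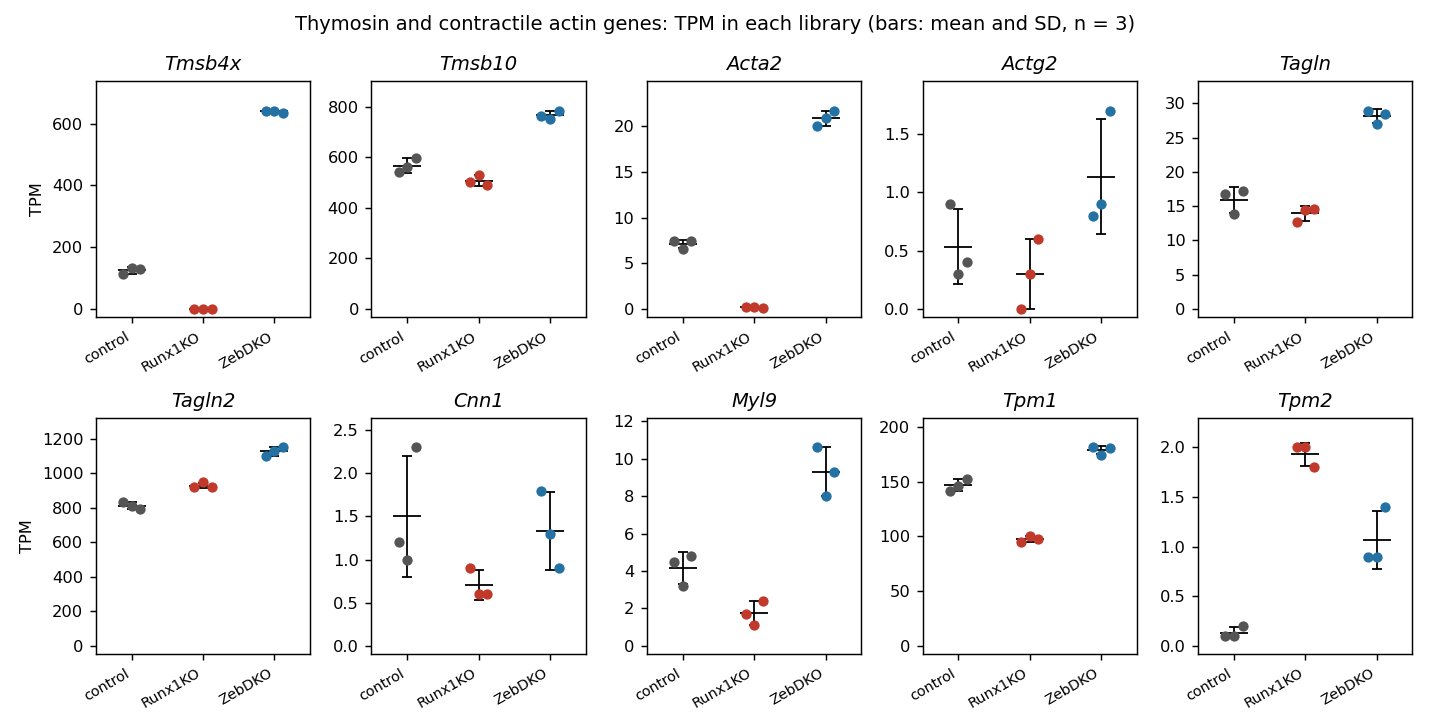
Level of each of the 10 genes in TPM on a linear axis from 0, with 1 point per library and the mean and SD of the 3 libraries of a genotype as black bars. Tmsb4x and Acta2 were near 0 in Runx1KO libraries and highest in ZebDKO libraries, while Tpm2 was highest in Runx1KO libraries.

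Acta2, the smooth muscle alpha-actin that marks myofibroblasts, followed the same order at a low level. Control libraries were at 7.4, 6.6 and 7.4 TPM, Runx1KO libraries at 0.2, 0.2 and 0.1 TPM, and ZebDKO libraries at 20, 20.9 and 21.7 TPM. No library of one genotype reached those of another. The Runx1KO difference was -2.80 in log2(TPM+1), the 120th lowest of the genes tested. In ZebDKO cells Acta2 rose 2.93-fold (1.43 ± 0.06 in log2(TPM+1), SE, limma, adjusted p = 9.77e-07). Actg2, the smooth muscle gamma-actin, stayed between 0 and 1.7 TPM in all libraries, with 0.8, 0.9 and 1.7 TPM in ZebDKO against 0.9, 0.3 and 0.4 TPM in control libraries. It was under the filter of 1 TPM in at least 3 libraries of a comparison and was not tested.

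Myl9, the light chain whose phosphorylation starts contraction, was at 4.5, 3.2 and 4.8 TPM in control libraries. It was lower in Runx1KO libraries at 1.7, 1.1 and 2.4 TPM, and higher in ZebDKO libraries at 10.6, 8 and 9.3 TPM, again without overlap. In ZebDKO cells Myl9 rose 2.23-fold, and its difference of 1.002 ± 0.143 in log2(TPM+1) lay on the edge of the 2-fold limit (SE, limma, adjusted p = 0.000401). The call depended on single libraries: the difference was 0.86 without control replicate 2, 0.91 without ZebDKO replicate 1 and 0.998 without ZebDKO replicate 3, each just under the limit.

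The transgelins, which bundle actin filaments, were higher in ZebDKO libraries without reaching a call. Tagln was at 16.7, 13.8 and 17.2 TPM in control, 12.7, 14.5 and 14.6 TPM in Runx1KO, and 28.9, 27 and 28.5 TPM in ZebDKO libraries. Tagln thus overlapped between Runx1KO and control, while its ZebDKO difference was 0.79 ± 0.08 in log2(TPM+1), 1.77-fold (SE, limma, adjusted p = 7.02e-05). Tagln2, the transgelin of non-muscle cells, was at 833.9, 808.9 and 793.4 TPM in control and at 1100, 1129 and 1148 TPM in ZebDKO libraries. Unlike Tmsb4x and Acta2, Tagln2 was also a little higher in Runx1KO libraries, at 920.4, 946.2 and 917.7 TPM. Its ZebDKO difference was 0.47 ± 0.03 in log2(TPM+1), 1.39-fold (SE, limma, adjusted p = 5.18e-06).

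Cnn1, calponin 1 of differentiated smooth muscle, was near the detection level. It was at 1.2, 1 and 2.3 TPM in control, 0.9, 0.6 and 0.6 TPM in Runx1KO, and 1.8, 1.3 and 0.9 TPM in ZebDKO libraries. The ZebDKO and control libraries overlapped, and the difference of -0.08 in log2(TPM+1) had a 95% interval from -0.60 to 0.43 (limma, adjusted p = 0.743).

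The tropomyosins, which lie along actin filaments and govern access of myosin, went separate ways. Tpm1 was at 141.5, 145.8 and 152.6 TPM in control, 95.2, 100.4 and 97.7 TPM in Runx1KO, and 181.3, 174.3 and 180.6 TPM in ZebDKO libraries. Its ZebDKO difference was small but larger than the spread between libraries, 0.28 ± 0.04 in log2(TPM+1) (SE, limma, adjusted p = 0.000230). Tpm2 was at 0.1, 0.1 and 0.2 TPM in control, 2, 2 and 1.8 TPM in Runx1KO, and 0.9, 0.9 and 1.4 TPM in ZebDKO libraries. Tpm2 was therefore the only one of the 10 genes more than 2-fold above control in Runx1KO libraries on this scale (1.37 in log2(TPM+1)), and it entered that comparison only through the libraries in which it was high. In the ZebDKO comparison it fell under the filter and was not tested, although its libraries did not overlap with control.

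Counted over the group, 3 of the 10 genes (Tmsb4x, Acta2 and Myl9) were called higher in ZebDKO cells, 0 were called lower, 5 were tested without a call and 2 were not tested. A call needed a 2-fold difference in log2(TPM+1) and an adjusted p under 0.05, and 14.8% of the 12974 genes tested had one, 7.48% higher and 7.27% lower. At an adjusted p under 0.05 alone 7 of the 10 were higher and 0 lower, where 26.9% of all genes tested were higher and 52.5% lower. The 3 ZebDKO libraries lay above the 3 control libraries without overlap for 8 of the 10 genes, against 27.7% of all genes tested, and below them for none, against 53.3%. These 8 include Tpm2, which was not tested, whereas both shares, like those at adjusted p alone, cover only genes tested. At a limit of 1.3-fold in place of 2-fold, 6 of the 10 genes were called higher, as were 17.3% of all genes tested. The median difference of the 8 genes tested was 0.63 in log2(TPM+1), where the median of all genes tested was -0.18. That shift of the whole table vanished when libraries were scaled by the median ratio, which set the median of all genes at 0.00 and changed the split of calls from 50.7% higher to 64.2% higher. Because that scaling raised ZebDKO differences, the 7 genes with an adjusted p under 0.05 could only stay higher, which is no check of them. The shares of all genes given above were not counted again under it.

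In Runx1KO cells 3 of the 10 genes were past 2-fold in log2(TPM+1), Tmsb4x and Acta2 below control and Tpm2 above it. Of 13067 genes tested 5.17% were past 2-fold below control and 8.02% above it. At a limit of 1.3-fold and an adjusted p under 0.05 (limma), 37.2% were called in either direction. By size alone 6 of the 10 genes were past 1.3-fold. The share of all genes past it by size alone was not counted, so the 2 values are not alike. Runx1KO libraries lay below control without overlap for 6 of the 10 genes (42% of all genes tested) and above for Tagln2 and Tpm2 (31.7%). Nothing is read from these counts, since this comparison chose the genes. The order ZebDKO above control above Runx1KO, without overlap at either step, held for Tmsb4x, Tmsb10, Acta2, Myl9 and Tpm1, and for 7.13% of 13374 genes at 1 TPM or more in 3 of 9 libraries. The lower step of that order belongs to the comparison that chose the group.

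**Figure D2:**
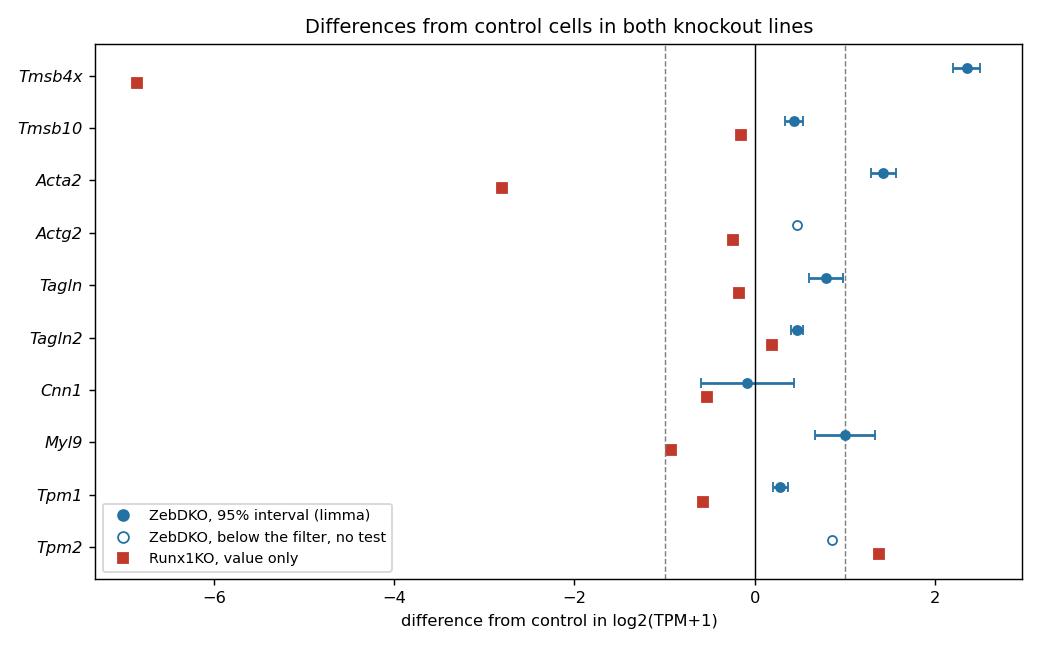
Difference from control cells in log2(TPM+1) for each of the 10 genes, with ZebDKO as circles (bars: 95% interval of limma; open circles: under the filter, no test) and Runx1KO as squares without error, because no test was made. Tmsb4x stands at 2.35 in ZebDKO and -6.85 in Runx1KO cells, and dashed lines mark the 2-fold limit.

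The genes whose pattern over the 9 libraries was most like that of Tmsb4x were Spon2, Sorcs2, Wipi2, Kalrn and Gdnf, out of 13373 genes compared by Pearson correlation of log2(TPM+1), which was 0.998 for each of the 5. Gdnf, the growth factor by which metanephric mesenchyme calls out the ureteric bud, was at 13.1, 11.4 and 13.6 TPM in control, 0.1 TPM in each Runx1KO library, and 38.6, 41.4 and 39.4 TPM in ZebDKO libraries. Within the group Acta2 (0.995, rank 32) and Tpm1 (0.991, rank 67) were nearest to Tmsb4x, and Tpm2 ran the other way (-0.598). With 3 groups of 3 libraries these values mostly reflect the order of the group means, and they are given without a test.

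Among the other genes of the actin cytoskeleton, a list of 46 covered further actin isoforms, monomer-binding and severing proteins, relatives of transgelin and calponin, tropomyosins and caldesmon, myosin II, crosslinkers and smooth muscle cytoskeleton, and SRF with its coactivators. In ZebDKO cells 38 of the 46 were tested, 6 were called higher and 1 lower, or 18.4% of those tested, where 14.8% of all genes tested were called, 7.48% higher and 7.27% lower. Their median difference was 0.19 in log2(TPM+1), against -0.18 over all genes tested. In Runx1KO cells 38 were tested, with 3 called higher and 5 lower, against 7.91% and 5.1% of all genes tested (13% in either direction).

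Acta1, the actin of skeletal muscle, had the largest rise of the list in ZebDKO cells, though not the highest level: 36.7, 42.2 and 42.8 TPM against 0.9, 0.4 and 0.8 TPM in control libraries, a rise of 4.62 ± 0.12 in log2(TPM+1) (SE, limma, adjusted p = 1.07e-07). Acta1 was also higher in Runx1KO libraries, at 13.7, 10.1 and 13.2 TPM (2.97 ± 0.15, adjusted p = 3.37e-06), and so did not share the fall of Acta2. Smtn, smoothelin of contractile smooth muscle, rose to 127.7, 129.9 and 135 TPM in ZebDKO from 34.8, 35.1 and 34.3 TPM in control libraries (1.88, adjusted p = 2.53e-08). Myh14, a non-muscle myosin heavy chain of epithelia, rose by 1.87 in ZebDKO (adjusted p = 1.56e-06) and by 3.39 in Runx1KO cells (adjusted p = 6.47e-08).

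Csrp2, a LIM protein of smooth muscle, was the one gene of the list called in opposite directions in the knockout lines. It was at 25.4, 24.7 and 29.1 TPM in control, 10.7, 12.2 and 12.9 TPM in Runx1KO, and 76.5, 74.5 and 86.9 TPM in ZebDKO libraries, called in both comparisons (ZebDKO 1.55, adjusted p = 2.17e-06; Runx1KO -1.08, adjusted p = 2.90e-05). Cfl2, the muscle cofilin that severs filaments, fell in both lines (ZebDKO -1.40, adjusted p = 1.12e-07; Runx1KO -1.25, adjusted p = 1.74e-07). Gsn, gelsolin, which severs and caps filaments, rose in both lines (ZebDKO 1.08, adjusted p = 6.29e-07; Runx1KO 1.19, adjusted p = 2.96e-07). Des, desmin of muscle intermediate filaments, fell in Runx1KO cells (-1.305, adjusted p = 4.65e-06) and differed by -0.57 in ZebDKO cells (adjusted p = 0.000168, not called). Pfn2, a profilin that loads monomers onto filaments, fell by 1.03 in Runx1KO cells (adjusted p = 1.71e-05) and differed by -0.87 in ZebDKO cells (adjusted p = 1.96e-05), just under the limit of a call.

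The cytoplasmic actins, which make up most of the actin of non-muscle cells, moved little in ZebDKO cells. Actb was at 4834, 4814 and 4936 TPM in ZebDKO against 4191, 4153 and 4140 TPM in control libraries (0.22, adjusted p = 3.92e-05, not called). Actg1 was at 821.8, 776.4 and 760.9 TPM against 613.9, 588.7 and 612.5 TPM (0.38, adjusted p = 4.35e-05, not called). In Runx1KO cells Actg1 was at 1135, 1243 and 1240 TPM, 0.99 in log2(TPM+1) above control and just under the limit of a call. SRF and its coactivators are mentioned after their values were seen: in ZebDKO cells Srf (0.24, adjusted p = 0.0113) and Mrtfa (0.41, adjusted p = 3.64e-05) were higher without reaching 2-fold, and Mrtfb differed by 0.03 (adjusted p = 0.670). In Runx1KO cells Srf (0.64, adjusted p = 0.000169) and Mrtfb (0.42, adjusted p = 0.000325) were higher and Mrtfa (-0.26, adjusted p = 0.000243) lower, none of them called, in the line in which Acta2 and Myl9 lay below control. Myocd was at 0.1 TPM or less in every library.

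**Figure D3:**
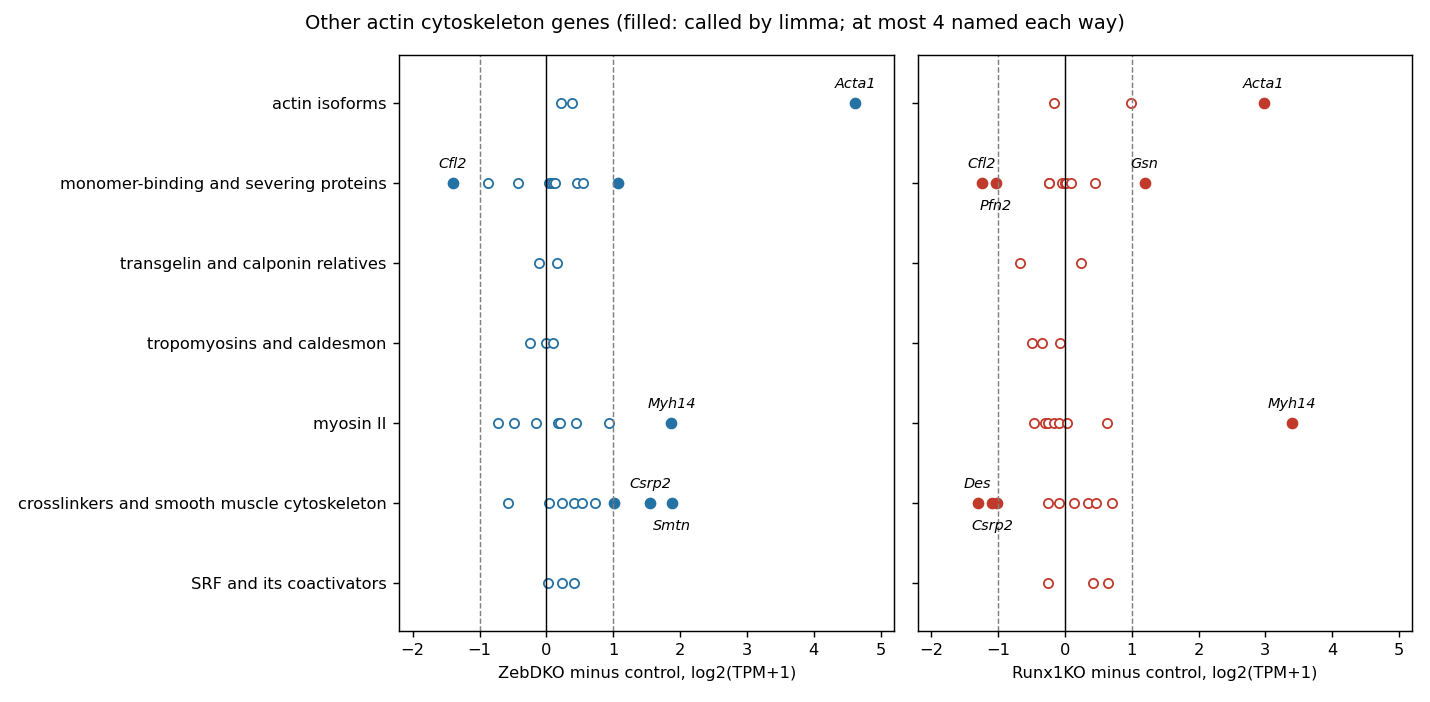
Difference from control in log2(TPM+1) for the other actin cytoskeleton genes that passed the filter, 1 row per functional group, ZebDKO in the left panel and Runx1KO in the right panel. Filled points were called by limma, at most 4 in each direction are named, and dashed lines mark the 2-fold limit; Acta1 stands at 4.62 and 2.97.

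Marker lists of cell types were read beside these changes. Epithelial markers (8 genes) summed to 3.3 to 5.8 TPM in control, 2662 to 2744 TPM in Runx1KO and 1151 to 1210 TPM in ZebDKO libraries, most of it Krt8 in the knockout libraries. The list did not move as one: Epcam was at 0 in control and Runx1KO and at 26.7 to 28.8 TPM in ZebDKO libraries, Cdh1 was at 0.6 TPM or less throughout, and Ovol1 overlapped between ZebDKO and control. Smooth muscle markers (6 genes) summed to 39.1 to 40.0 TPM in control, 57.0 to 59.5 TPM in Runx1KO and 130.8 to 138.1 TPM in ZebDKO libraries, most of it Smtn, with Myh11 at 0.2 TPM or less throughout. Des went the other way, from 4.3 to 4.6 TPM in control to 1.1 to 1.3 TPM in Runx1KO and 2.5 to 2.8 TPM in ZebDKO libraries. Skeletal muscle markers (4 genes) went from 0.9 to 1.2 TPM in control to 10.7 to 14.3 TPM in Runx1KO and 37.1 to 43.0 TPM in ZebDKO libraries, of which Acta1 was nearly all, and Myog was listed at 0 throughout. Markers of blood and endothelium (3 genes) summed to 2.9 to 4.5 TPM in control, 1.0 to 1.3 TPM in Runx1KO and 3.6 to 5.7 TPM in ZebDKO libraries, nearly all of it Cdh5, with Ptprc at 0. Those of metanephric mesenchyme (10 genes) summed to 671 to 682 TPM in control, 716 to 785 TPM in Runx1KO and 615 to 646 TPM in ZebDKO libraries, most of it Pax2 and Hoxa11, while Six2 was at 0.2 TPM or less and Hoxd11 at 0 in all libraries. Within that list Osr1 went from 64.1 to 70.9 TPM in control to 0.3 to 0.5 TPM in Runx1KO and 17.1 to 18.9 TPM in ZebDKO libraries, Eya1 was lower in Runx1KO libraries alone (5.4 to 6.1 TPM against 15.9 to 16.6 TPM), and Gdnf moved as given above. Others differed: Pax2 was at 310.2 to 315.7 TPM in control, 430.9 to 501.0 TPM in Runx1KO and 209.5 to 236.3 TPM in ZebDKO libraries. Sall1 was likewise higher in Runx1KO libraries (62.3 to 68.6 TPM) and lower in ZebDKO libraries (35.6 to 38.7 TPM) than in control (49.5 to 53.7 TPM). Hoxa11 was higher in ZebDKO libraries alone (288.4 to 296.3 TPM against 212.4 to 217.4 TPM in control). The part of these shifts in the levels of the 10 genes was not tested, and in RNA from whole cultures fewer cells with a transcript and less of it per cell cannot be told apart.

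Chromatin at the 10 genes was a readout that did not enter the choice of the group. Regions open in ATAC-seq had been sorted by the authors into Runx1-dependent (less open in Runx1KO cells), induced (more open) and independent, and a gene was counted when the middle of a region lay within 20 kb of one of its starts or inside it. A Runx1-dependent region was near 0 of the 10 genes, while 25% of 11405 expressed genes had one. That count depended on the window, since such regions lay 20.2 kb from a start of Tpm1 and 20.8 kb from a start of Tmsb10. With a window of 50 kb, 5 of the 10 genes and 40.3% of expressed genes had one. An induced region lay near Tpm2 alone, 12.7 kb downstream of its nearest start, and near 34.6% of expressed genes. Independent regions were near 9 of the 10 genes and near 95.5% of expressed genes.

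Tmsb4x (chrX:163645025-163647247, minus strand) was the one without any open region in that window. The nearest was an induced region 20.7 kb upstream, followed by an independent region 24.1 kb upstream. Within 5 kb of a start, 6 of the 10 genes had an open region of some class, and Tmsb4x, Acta2, Actg2 and Myl9 had none. Of the genes at 100 TPM or more in control cells, as Tmsb4x was, 95.4% had an open region within 5 kb, and 91.9% of all 11405.

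Runx1 peaks of control cells lay near Tmsb10, Actg2, Tagln2 and Tpm2, 4 of the 10 genes, while 42.3% of expressed genes had one. The peak at Tmsb10, chr6:72908266-72908608, covered the starts of its shorter transcripts with a 4.68-fold enrichment over background, and the 3 peaks at Tagln2 lay within 1 kb of a start. Both genes thus carried Runx1 at an independent open region and differed from control in Runx1KO cells by -0.16 and 0.19 in log2(TPM+1). For Tmsb4x the nearest Runx1 peak was 135.3 kb upstream, and for Acta2 195.8 kb upstream, so neither of the genes that were past 2-fold below control had one within 50 kb. Runx2 peaks lay near 5 of the 10 genes in control and near 6 in Runx1KO cells, against 72.3% and 73.7% of expressed genes. Acta2 had a Runx1-dependent region 35.3 kb upstream that carried a Runx2 peak in both lines (3.52-fold in control, 3.66-fold in Runx1KO cells).

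The highest Runx1 enrichment within 50 kb of a gene of the group was 28.7 kb upstream of Tpm1, 8.30-fold at chr9:66925739-66926075, in an independent open region. Its middle 200 bases are shown because this was the strongest Runx1 peak beside a gene of the group, with matches to TGTGGT on either strand in capitals, plus strand of mm9.
Tpm1 upstream peak, chr9:66925808-66926007: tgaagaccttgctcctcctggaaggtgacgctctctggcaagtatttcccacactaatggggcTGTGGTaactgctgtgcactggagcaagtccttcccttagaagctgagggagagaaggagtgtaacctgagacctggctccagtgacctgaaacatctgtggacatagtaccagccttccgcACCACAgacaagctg
TGTGGT stood there 2 times, and at least once in the middle 200 bases of 33.6% of 9975 Runx1 peaks. The share with 2 matches was not counted. Of the other Runx1 peaks within 50 kb of the group, those at Actg2 held 1 match each in their middle 200 bases. Among those at Tagln2 only chr1:174432025-174432231 held 1. The peaks at Tmsb10 and Tpm2 held no match.

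**Figure D4:**
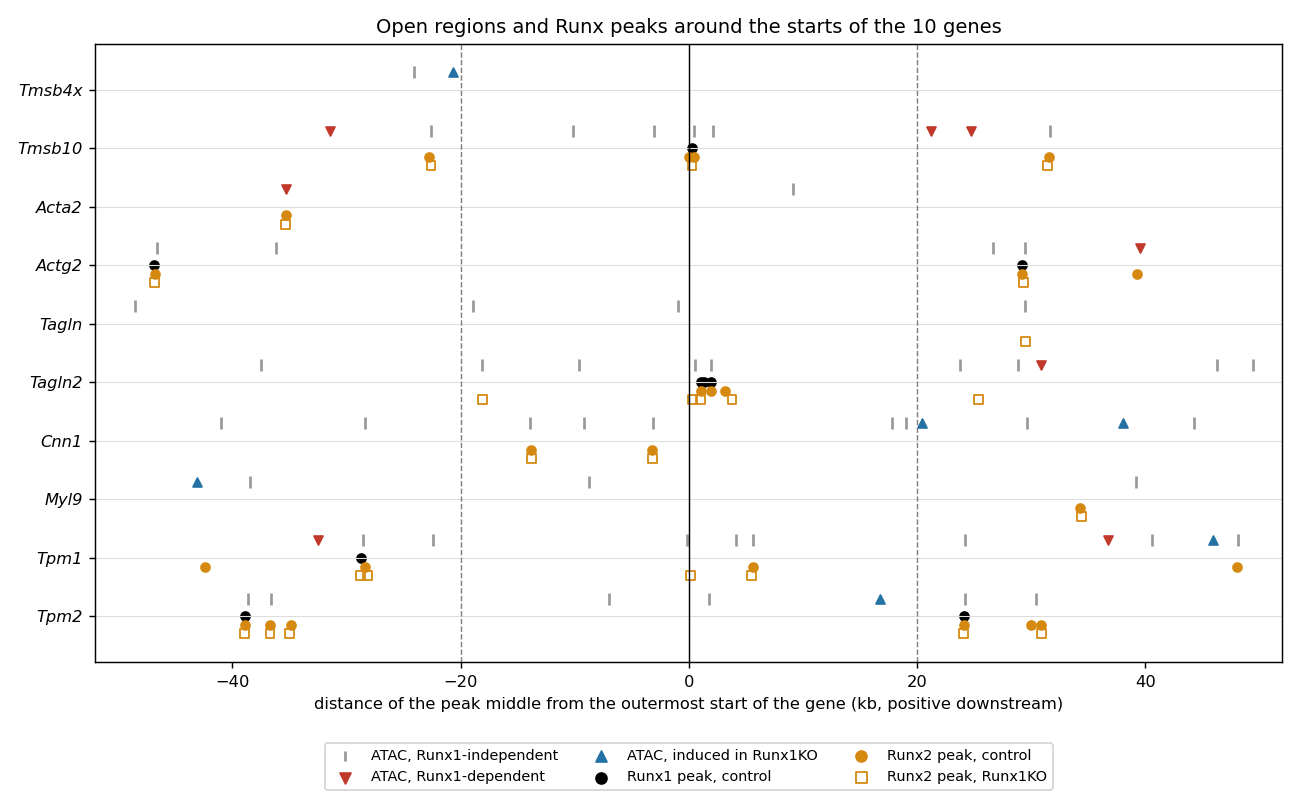
Position of ATAC-seq regions and of Runx1 and Runx2 peaks around the outermost start of each of the 10 genes, in kb with positive values downstream, 1 row per gene and 1 symbol per list, with dashed lines at 20 kb. The Tmsb4x row holds only an induced and an independent region, both more than 20 kb upstream, and no Runx peak.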

How the data were processed

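RNA-seq of mK4 cells had 3 libraries for each of 3 genotypes. The 10 genes and the lists of actin and marker genes were chosen with earlier results of these data known. For RNA-seq the authors aligned reads to mm9 with STAR, counted them on RefSeq genes with featureCounts 1.6.2 (version per the submitters' processing notes) and deposited TPM, without stating gene lengths or use of strand. The table of 9 libraries has 1 decimal. A deposited TPM table of 6 libraries (32792 rows) served as an alternative, and all value columns were mapped to samples. The DESeq2 comparisons of the authors were not used.

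Genes at 1 TPM or more in at least 3 of the 6 libraries compared were fitted on log2(TPM+1) with limma 3.58.1 in R 4.3.3 (trended prior, Benjamini-Hochberg over all genes tested), and called at a 2-fold difference and an adjusted p under 0.05. The fit was tested on simulated data. Alternatives were pseudocounts of 0.1 and 0.5 TPM, no filter, a filter of 5 TPM, a 1.3-fold limit, median-ratio scaling, quantile normalization, a replicate block, 1 fit over 9 libraries, no trend and each library left out. TPM keeps no read number, so depth is unknown and genes near 0 move in steps of the last decimal.

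For ChIP-seq the authors called MACS2 peaks on combined replicates and took out those that the Runx1 antibody still gave without Runx1. The fold enrichment ratio and the -log10 q are theirs as deposited, and the lists hold no value per replicate. ATAC-seq lists were sorted by the authors, whose log2 fold changes and -log10 values in them were not used. Peaks were placed on GENCODE vM1 genes of mm9, and copies of transcripts were searched with BLAST 2.17.0. Named were all 10 genes, Runx1, Zeb1 and Zeb2, Actb and Actg1, at most 4 called genes of the actin list in each direction, the 5 genes most like Tmsb4x, and the 3 genes on either side of it. Actn1, Srf, its coactivators, Tmsb15b1, Tmsb15l and the markers named lie outside this rule and were mentioned after their values were seen.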

Additional observations from a re-analysis of the deposited data

Results flagged for a closer look

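For 5 of the 10 genes every ZebDKO library lay above and every Runx1KO library below all of the same 3 control libraries. This order held for 7.13% of 13374 genes at 1 TPM or more in 3 of 9 libraries, and its lower step belongs to the comparison that chose the group. For Tmsb10 the lower step was narrow, with the highest Runx1KO library at 531.6 TPM and the lowest control library at 539.9 TPM. The ZebDKO differences were 2.35 for Tmsb4x, 0.44 for Tmsb10, 1.43 for Acta2, 1.002 for Myl9 and 0.28 for Tpm1 in log2(TPM+1). The Runx1KO differences were -6.85, -0.16, -2.80, -0.93 and -0.58 in the same order. The difference between the lines was not tested, because the Runx1KO values had entered the choice of the genes.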

How the results depend on the processing

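Under the alternatives in which they could be fitted, Tmsb4x and Acta2 were called higher in ZebDKO cells in 15 of 15, with differences from 2.27 to 2.55 and from 1.38 to 1.62 in log2(TPM+1), and Myl9 in 12 of 15, from 0.86 to 1.17. Tmsb10, Tagln, Tagln2 and Tpm1 kept their direction in all 15 without a call, and Cnn1 changed sign, from -0.23 to 0.14, with an adjusted p (limma) of at least 0.406. Among the other actin genes the call of Actn1 was lost without control replicate 2 (0.97), without ZebDKO replicate 3 (0.996) and under quantile normalization (0.997). In Runx1KO cells Acta1, Myh14, Gsn and Cfl2 were called in 16 of 16 alternatives, Csrp2 in 15 of 16, Des in 14 of 15, Pfn2 in 10 of 16 and Actg1 in 5 of 16. Without a filter Actg2 had an adjusted p of 0.110 and Tpm2 of 0.000868, each without a call.

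With a limit of 1.3-fold, 6 of the 10 genes and 20 of the 38 other actin genes tested were called in ZebDKO cells, among 6746 of 12974 genes tested. In Runx1KO cells 18 of the 38 other actin genes tested were called, among 4857 of 13067 genes tested (37.2%). There 6 of the 10 genes were past 1.3-fold by size alone, without a test, a measure for which no share of all genes was counted. Leaving out 1 library at a time gave calls for 2 to 3 of the 10 genes, 6 to 7 other actin genes and 1895 to 1960 genes in the ZebDKO comparison. In the Runx1KO comparison it gave calls for 7 to 9 other actin genes and 1699 to 1706 genes, and 3 to 4 of the 10 genes were past 2-fold by size alone. The Runx1KO difference of Tmsb4x depended on the pseudocount, at -9.62 with 0.1 TPM and -7.74 with 0.5 TPM, and was -6.13 in the table of 6 libraries. Median-ratio scaling moved the median of all genes by more than 0.1 in the ZebDKO comparison, from -0.18 to 0.00.

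Within 5 kb of a start 2 of the 10 genes had a Runx1 peak (24.5% of expressed genes). Within 50 kb 5 had a Runx1-dependent region (40.3%), where 0 had one within 20 kb (25%), so that count did not hold across windows.

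Same-numbered libraries did not deviate together (correlations from -0.0495 to 0.0399), so the replicate numbers were not taken as pairs. With the number as a block, 1920 genes were called in the ZebDKO comparison, 3 of the 10 genes among them. In the Runx1KO comparison 1708 genes were called, and 3 of the 10 genes were past 2-fold by size alone, without a test.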

Other observations

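Of the genes next to Tmsb4x, those on the side of lower coordinates (Gm8817, Gm1720 and Egfl6) and the nearest on the other side (Tlr8 and Tlr7, receptors of innate immunity) were at 0.1 TPM or less in every library. Prps2, an enzyme of nucleotide synthesis 137 kb away, was at 98.2, 92.7 and 95 TPM in control, 56.3, 54 and 54.4 TPM in Runx1KO, and 51.1, 52.7 and 47.7 TPM in ZebDKO libraries. It was thus lower in both knockout lines and did not share the rise of Tmsb4x in ZebDKO cells. The nearest Runx1-dependent region and Runx1 peak to Tmsb4x lay 135.2 and 135.3 kb upstream of it, and so much nearer to Prps2 than to Tmsb4x.

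Among the minor beta-thymosins, Tmsb15b1 was at a mean of 18.6 TPM in control, 18.8 TPM in Runx1KO and 13.4 TPM in ZebDKO libraries, and Tmsb15l at 11.2, 11.3 and 12.4 TPM. In ZebDKO cells Tmsb15b1 differed by -0.43 in log2(TPM+1) (limma, adjusted p = 0.0153, not called), and how reads were split among these near-identical genes was not examined.

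The deposited tables gave the same control and Runx1KO libraries different levels for some genes of the group. The mean over the 6 libraries in the smaller table, divided by that in the larger, was 0.709 for the median of 11319 shared genes, with 90% of genes between 0.442 and 2.99. It was 0.587 for Tmsb4x and 0.510 for Acta2, but 5.29 for Tmsb10, 6.44 for Tpm1 and 0.171 for Tagln, all outside that range. Tmsb10 was at 3146 ± 397 TPM in control libraries there (SD, n = 3) against 567 ± 29.1 TPM. The reason was not tested, and levels of these 3 genes relative to other genes, such as the share of Tmsb4x in the thymosin sum, depend on the table. The direction in Runx1KO cells was the same in both tables for all 10 genes, but the overlap of libraries was not. Tagln overlapped in the larger table alone, and in the smaller was at 1.67, 2.27 and 2.26 TPM in Runx1KO against 3.15, 3.04 and 2.91 TPM in control libraries. Cnn1 overlapped in the smaller table alone, at 0.59, 0.32 and 0.33 TPM against 0.55, 0.47 and 1.09 TPM.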
